A study of Homo sapiens with 8 samples.

Results

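The genes described here carry the steps by which adrenal cells make and sulfate androgens: CYB5A, POR, SULT2A1, PAPSS2, AKR1C3, HSD17B4, SRD5A1, STS and AKR1B1. Open chromatin at these 9 genes was measured by ATAC-seq, in which the transposase Tn5 cuts accessible DNA and leaves sequencing adapters there. The cells were NCI-H295R, an established human adrenocortical carcinoma line, and coordinates are those of build hg38. A peak was assigned to a gene when its summit lay inside the gene, or within 100 kb of it with no other protein-coding gene nearer. By this rule the 9 genes held 30 of the 61016 peaks in vehicle, 16 of them inside a gene and 14 outside. They held 25 of 41086 peaks after EZH2 inhibition, 26 of 47161 after CBP inhibition and 27 of 51095 after forskolin. The assigned peak farthest from its gene lay 36764 bp from HSD17B4, had a width of 364 bp and had 37.1% of the vehicle list above it in area. The nearest peak left out by the distance limit lay 131834 bp from STS, had a width of 447 bp and had 90.3% of the list above it.

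All groups were cultures of the same line and each had 2 libraries, which the labels call biological replicates. Vehicle cells received DMSO for 96 h. A second group received 62 µM EPZ-6438, an inhibitor of the histone methyltransferase EZH2 (EZH2i), for 96 h, and another received 26 µM PRI-724, labelled as an inhibitor of the coactivator CBP (CBPi), also for 96 h. Both doses are given as IC-50 doses. The fourth group received DMSO for 48 h and then 10 µM forskolin (FSK), which stimulates adenylyl cyclase and so cAMP, for 48 h, so exposure to the agent was shorter than in the other treated groups. Each group is represented by 1 deposited peak list for its 2 libraries. No value below therefore has a replicate error, no test between groups was possible, and the read depth is unknown. A peak that left a list may have fallen just under the threshold of the peak caller, and fewer cells with an open site cannot be told apart from a site that was less open in each cell. Presence and width in the lists can vary with depth, and the lists differ in length.

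In the adrenal cortex, CYP17A1 cuts pregnenolone-derived steroids to dehydroepiandrosterone (DHEA). Its lyase step needs electrons from P450 oxidoreductase (POR) and is enhanced by cytochrome b5 (CYB5A). SULT2A1 then sulfates DHEA with the sulfate donor that PAPSS2 makes, and STS removes the sulfate again in target tissues. The remaining enzymes interconvert androgens downstream of DHEA, or clear aldehydes, and cAMP is the messenger through which ACTH drives adrenal steroid synthesis.

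The label of the line was set beside marker genes. A peak within 1 kb of a start was present in vehicle at 7 of 11 adrenocortical markers, and 10 of these 11 genes had at least 1 assigned peak. Over all 20033 protein-coding genes the shares by the same rule were 68.0% with a start peak and 78.3% with an assigned peak, so the adrenocortical count is near the background and does not by itself identify the line. Start peaks were present at 2 of 5 chromaffin cell markers, 2 of 6 fibroblast markers, 1 of 5 endothelial markers, 0 of 5 immune markers and 1 of 5 hepatocyte markers. An open start is not an expressed gene, and RNA was not measured in the libraries used here.

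The start windows of 4 genes are printed because they show the range of base composition over which the peaks were found. Each window runs from 250 bases before to 50 bases after an annotated start (300 bases, RefSeq GRCh38.p14), is written 5′ to 3′ on the strand of the gene, and has every CpG in capitals. RefSeq entries were matched for 7 of the 9 genes, and POR and PAPSS2 are named only. The first pair is rich in CpG and was open in every list: SRD5A1 (chr5:6633190-6633489, plus strand) and CYB5A (chr18:74291914-74292213, minus strand). SULT2A1 (chr19:47886266-47886565, minus strand) had no peak at its start in any list. AKR1C3 (plus strand) has a first start at chr10:5048531-5048830, without a peak, and an internal start at chr10:5094164-5094463, partly covered in 3 of the 4 lists.
SRD5A1: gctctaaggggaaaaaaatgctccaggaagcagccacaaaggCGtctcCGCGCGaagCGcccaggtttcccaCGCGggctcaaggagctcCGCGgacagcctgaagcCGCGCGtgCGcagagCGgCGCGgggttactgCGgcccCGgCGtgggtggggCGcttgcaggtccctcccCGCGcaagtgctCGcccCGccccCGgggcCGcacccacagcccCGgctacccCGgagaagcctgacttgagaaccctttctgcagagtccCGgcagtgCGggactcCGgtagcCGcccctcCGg
CYB5A: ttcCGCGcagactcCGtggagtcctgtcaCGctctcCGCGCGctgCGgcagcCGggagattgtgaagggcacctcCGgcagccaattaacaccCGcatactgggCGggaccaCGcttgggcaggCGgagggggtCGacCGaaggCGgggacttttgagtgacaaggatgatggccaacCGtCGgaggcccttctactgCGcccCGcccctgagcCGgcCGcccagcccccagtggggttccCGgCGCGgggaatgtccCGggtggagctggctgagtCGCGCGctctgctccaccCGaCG
SULT2A1: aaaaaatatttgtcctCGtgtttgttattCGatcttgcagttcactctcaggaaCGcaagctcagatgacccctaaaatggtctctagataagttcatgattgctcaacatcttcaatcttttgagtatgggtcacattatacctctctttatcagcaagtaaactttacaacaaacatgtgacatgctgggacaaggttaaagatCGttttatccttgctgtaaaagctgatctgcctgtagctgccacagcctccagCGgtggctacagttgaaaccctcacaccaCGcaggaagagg
AKR1C3 first start: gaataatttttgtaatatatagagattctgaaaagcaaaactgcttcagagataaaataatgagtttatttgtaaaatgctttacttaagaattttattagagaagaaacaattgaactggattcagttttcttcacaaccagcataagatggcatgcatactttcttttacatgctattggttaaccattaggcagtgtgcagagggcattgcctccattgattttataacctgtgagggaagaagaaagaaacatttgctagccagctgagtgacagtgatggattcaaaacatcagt
AKR1C3 internal start: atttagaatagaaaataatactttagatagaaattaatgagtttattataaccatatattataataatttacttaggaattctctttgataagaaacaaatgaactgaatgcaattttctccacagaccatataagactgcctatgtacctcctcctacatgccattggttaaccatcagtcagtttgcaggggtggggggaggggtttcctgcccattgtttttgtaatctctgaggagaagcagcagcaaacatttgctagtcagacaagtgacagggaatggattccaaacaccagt

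The capitals separate these windows by eye. SRD5A1 has 33 CpG and a GC content of 71.0%, and CYB5A has 32 CpG and 69.7%. SULT2A1 has 6 CpG and 42.7%. Both AKR1C3 windows have 0 CpG, with GC contents of 33.7% at the first start and 36.7% at the internal one. The 7 genes have 13 annotated windows in all, and 8 of them carried a vehicle peak. At the other starts, AKR1B1 had 2 overlapping windows with 33 and 18 CpG and HSD17B4 1 window with 19 CpG, all with a peak. STS had 5 windows, of which the pair at its 5′ end, with 6 and 23 CpG, had a peak and the 3 farther into the gene, with 5, 1 and 3 CpG, had none.

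Across all 22131 windows of the RefSeq table, 63.0% carried a vehicle peak. The share was 14.7% of 2753 windows with GC under 45%, 47.9% of 6497 windows from 45% to 60% and 81.0% of 12881 windows at 60% or above. The windows at SULT2A1 and at the first start of AKR1C3 thus fall in the GC class in which few windows had a peak. The internal AKR1C3 start is in the same class and had one: vehicle, CBPi and FSK peaks covered 218, 218 and 216 of its 300 bases, and the EZH2i peak nearby covered 0.

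**Figure D1:**
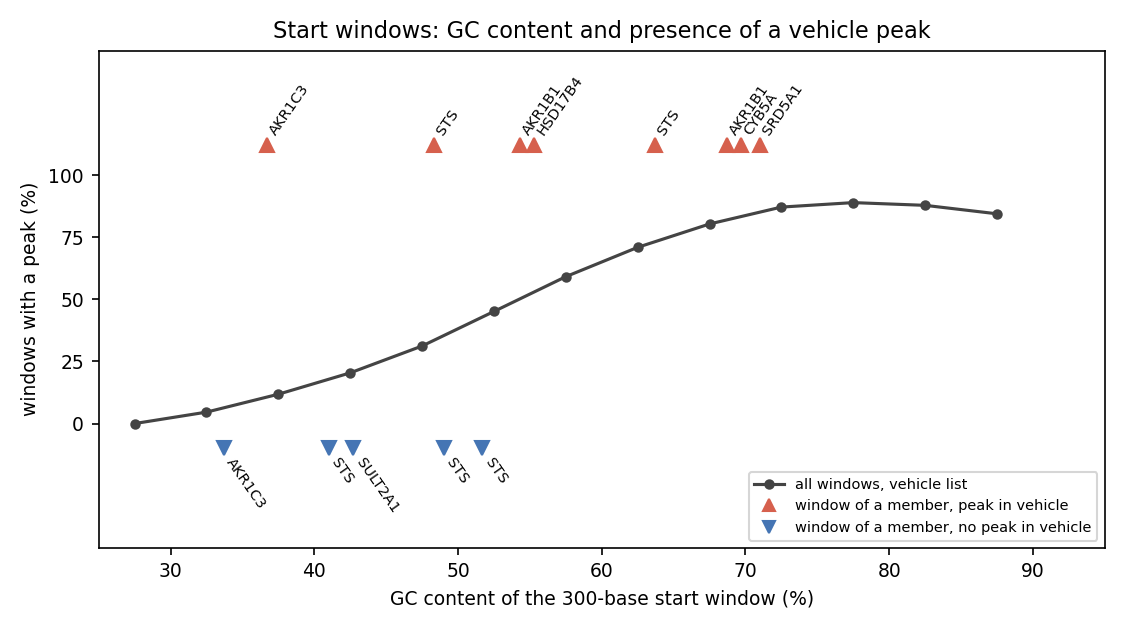
GC content of the 300-base start window (x axis, %) against the share of all 22131 windows with a vehicle peak (y axis, %; joined points, 1 per GC class). Triangles above and below the curve mark only the GC content of the 13 windows of the 9 genes' RefSeq entries, upward with and downward without a vehicle peak; every one at 54.3% or above has a peak, and AKR1C3 is the only gene with a peak below 45%.

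Short motifs were searched in the windows on both strands, as letters and not as bound sites. The AKR1B1 windows overlap, as does a pair of internal STS windows, so the same site can be counted more than once. This holds for the CCAAT box and a GC box of AKR1B1. The steroidogenic factor 1 motif AAGGTCA was found in 3.22% of all windows and in 1 of the 13 windows, at an internal STS start without a peak. The cAMP response element TGACGTCA was in 2.26% of all windows and in 0 of the 13. Its core TGACG, which is also part of the full element, was in 27.9% of all windows and in 3 of the 13, at AKR1B1 and STS. The AP-1 motif TGANTCA was in 6.15% of all and in 0 of the 13. The TCF motif CTTTGA was in 11.0% of all and in 4 of the 13, at the internal AKR1C3 start and at STS. The GC box GGGCGG was in 56.3% of all windows and in 6 of the 13, at AKR1B1, CYB5A, HSD17B4, SRD5A1 and STS. The CCAAT box was in 34.6% of all and in 6 of the 13, at AKR1B1, AKR1C3, CYB5A and STS, and the TATA box TATAAA was in 9.46% of all and in 2 of the 13, at the first AKR1C3 start and an internal STS start.

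Start peaks were stable in presence. A peak lay within 1 kb of a start (for POR and PAPSS2, of either annotated gene end) at 8 of the 9 genes in vehicle, and at the same 8 genes after every treatment. Hence 0 of 8 start peaks were lost with each agent (95% Wilson interval 0.0 to 32.44%, counting error only). Over all 11204 genes with a vehicle start peak, 3.3% had none in the EZH2i list, 1.64% in the CBPi list and 3.61% in the FSK list, so losing 0 of 8 is near the background. The exception among the 9 genes was SULT2A1, with no start peak in any list.

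Losses fell on small peaks. EZH2i lost 6 of the 30 vehicle peaks (20.0%, interval 9.505 to 37.31%) against 37.7% of all vehicle peaks. CBPi lost 5 of 30 (16.7%, 7.337 to 33.56%) against 30.6%, and FSK lost 7 of 30 (23.3%, 11.79 to 40.93%) against 30.2%. The background share lay above the interval for EZH2i only, by a small margin. Peak size differed between the sets: 20 of the 30 peaks had an area above the median of the vehicle list, 581.4. Area is the authors' value for significance summed under the peak, with a minimum of 200.0 in every list.

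The shares were also read within size classes. Of the 20 peaks of larger area, 0 were lost with each agent (0.0 to 16.11%), where the background was 7.62% with EZH2i, 5.45% with CBPi and 5.91% with FSK. Of the 10 peaks of smaller area, 6 were lost with EZH2i (31.27 to 83.18%), beside 67.7% of all such peaks. CBPi lost 5 of 10 (50.0%, 23.66 to 76.34%), beside 55.8%, and FSK lost 7 of 10 (70.0%, 39.68 to 89.22%), beside 54.6%. Each background share of both classes lies inside the interval of the 9 genes. With every list shortened to its 41086 peaks of largest area, 21 vehicle peaks of these genes were left and 0 of them were lost with any agent (0.0 to 15.46%). Under the same limit 17.7% of all vehicle peaks were lost with EZH2i, 18.0% with CBPi and 20.7% with FSK. That comparison does not match peaks by area, and 20 of the 30 peaks of these genes were of larger area.

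**Figure D2:**
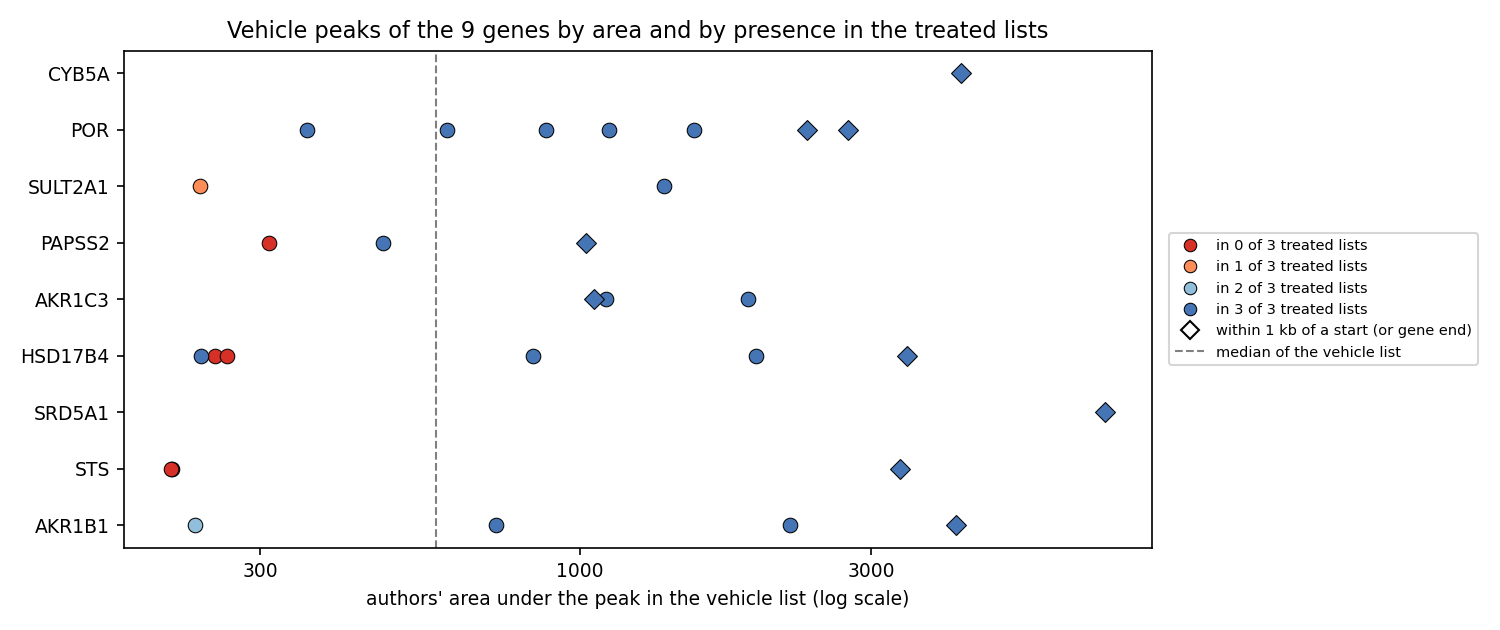
Area of each vehicle peak of the 9 genes (x axis, authors' area, log scale) by gene (rows), coloured by the number of treated lists that hold the peak; diamonds lie within 1 kb of a start or gene end and the dashed line is the median of the vehicle list, 581.4. All 20 peaks to the right of the line are held by 3 treated lists, and the 5 peaks in red, held by 0, have areas from 214.4 to 309.8 (the 2 red STS points overlap).

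Of the 30 vehicle peaks, 23 were held by all 3 treated lists, 1 by 2, 1 by 1 and 5 by 0. The 5 absent from every treated list belonged to PAPSS2, HSD17B4 and STS. The largest was inside PAPSS2 (chr10:87735311-87735541), with an area of 309.8 and 78.2% of the list above it. One HSD17B4 peak was 16850 bp upstream of the start (chr5:119435553-119435758, area 253.4) and another inside the gene near its 3′ end (chr5:119541820-119542049, area 264.4). The pair in STS lay inside the gene at chrX:7191690-7192061 (area 214.9) and chrX:7280668-7280856 (area 214.4), close to the minimum of the list. These peaks were absent from 3 lists that were all compared with the same vehicle list, so the 3 absences are not independent.

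Gained peaks were few and small. EZH2i had 1 of 25 peaks with no vehicle peak under it (4.0%, interval 0.7096 to 19.54%), against 6.98% of its whole list. CBPi had 1 of 26 (3.85%, 0.6822 to 18.89%) against 10.7%, and FSK had 4 of 27 (14.8%, 5.916 to 32.48%) against 15.9%. The shares of the 9 genes were near the background in FSK and their intervals held it for the other agents. They fell into 5 regions, 4 of them seen in a single treated list, with areas from 207.0 to 351.3.

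**Figure D3:**
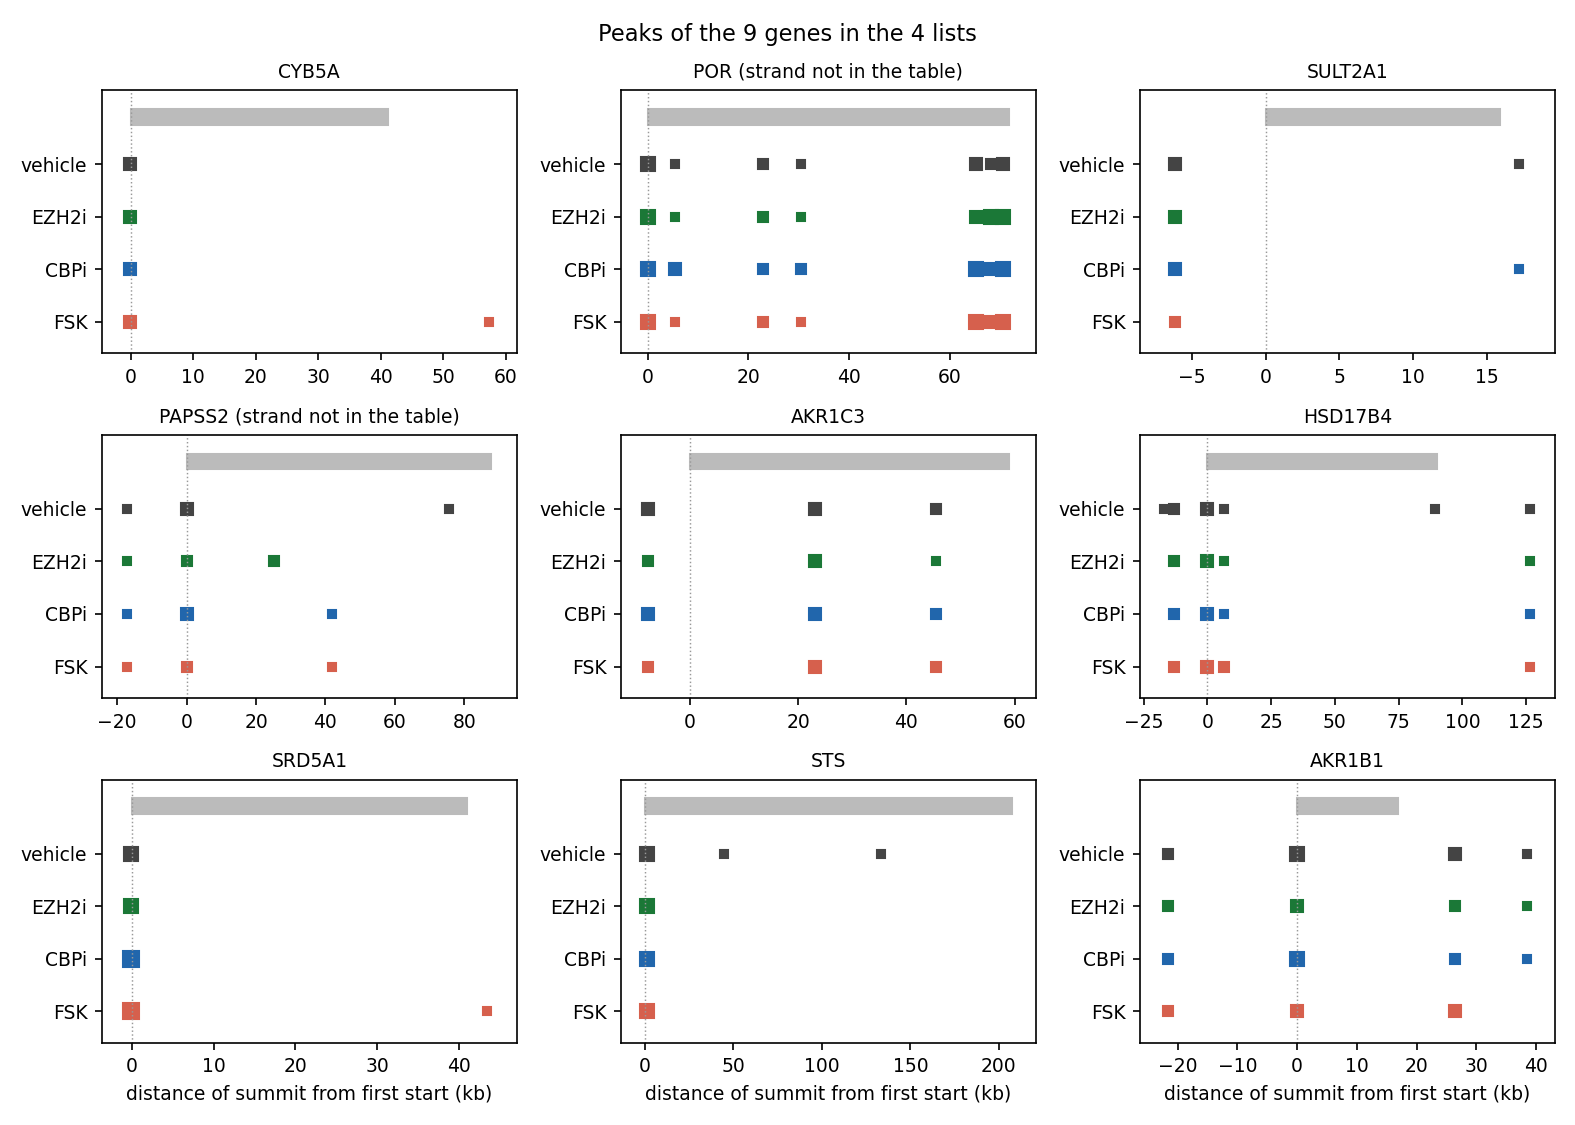
Peaks of the 9 genes in the 4 lists by distance of the summit from the first annotated start (x axis, kb, in the direction of transcription; for POR and PAPSS2, from the end of lower coordinate). The grey bar is the gene and square size grows with peak width but is not to the scale of the axis. A peak within 1 kb of a start or gene end stays in every list except at SULT2A1, which has none. That of AKR1C3 is at its internal start and with EZH2i covers 0 bases of the 300-base start window.

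CYB5A and POR supply CYP17A1. CYB5A, cytochrome b5, had 1 vehicle peak, at its start (chr18:74291525-74292759, summit 165 bp upstream). It was 1235 bp wide in vehicle, 945 bp with EZH2i, 1033 bp with CBPi and 1155 bp with FSK, and was thus narrower in each treated list. So were most matched neighbouring peaks within 1 Mb, with median ratios of 0.82 with EZH2i, 0.85 with CBPi and 0.899 with FSK. Over all matched peaks the medians were 0.889, 0.965 and 0.924. The share of peaks of larger area in the same list was 4.59%, 7.05%, 7.5% and 4.71% in that order. In FSK alone CYB5A had a second peak, 16230 bp beyond its 3′ end (chr18:74234520-74234740), with an area of 269.9 and 83.3% of that list above it.

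For POR, the electron donor of microsomal P450 enzymes, all 7 vehicle peaks were held by every list. The peak at the end of lower coordinate (chr7:75914532-75916066) was 1535 bp wide in vehicle, 1612 bp with EZH2i, 2043 bp with CBPi and 1556 bp with FSK. The peak near the other end (chr7:75985148-75986390) was 1243, 1477, 1656 and 1705 bp wide in the same order. Both ends were thus widest in a treated list and narrowest in vehicle. Area did not follow width throughout. Among regions that all lists hold, the end of lower coordinate stood at percentile 79.5, 82.3, 85.3 and 68.9, so it was lower with FSK. The other end stood at 74.6, 76.1, 76.5 and 74.9. FSK alone added a small peak between 2 of these peaks (chr7:75981459-75981749, area 217.0).

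The POR peaks were wider after CBPi without exception. Width relative to vehicle ranged from 1.11 to 2.09 in CBPi over 7 of 7 peaks, with a median of 1.52. At the peak near chr7:75920421-75920837 it went from 417 to 873 bp, and at chr7:75945404-75945660 from 257 to 526 bp. EZH2i peaks were wider at 6 of 7 (median 1.05) and FSK peaks at 6 of 7 (median 1.11). Vehicle peaks within 1 Mb of the gene and not assigned to it were read in the same way. They were wider at 28 of 47 with CBPi (59.6%, median 1.03), at 8 of 40 with EZH2i (20.0%, median 0.897) and at 16 of 41 with FSK (39.0%, median 0.97). Thus the neighbourhood of POR also leaned to wider peaks with CBPi, by less than the gene itself.

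SULT2A1 and PAPSS2 make DHEA sulfate. SULT2A1, the DHEA sulfotransferase, had 2 vehicle peaks, both outside the gene. The larger lay upstream (chr19:47891814-47892762, summit 6113 bp from the start) and was 949 bp wide in vehicle, 971 bp with EZH2i, 953 bp with CBPi and 685 bp with FSK. In area, 23.7% of the list lay above it in vehicle, 31.2% with EZH2i, 23.2% with CBPi and 58.5% with FSK. These lists differ in length. Among regions that all lists hold, its percentile was 54.2 in vehicle, 59.4 with EZH2i, 65.2 with CBPi and 20.3 with FSK. It was thus lower than in vehicle with FSK only. The FSK list stands apart here in both width and rank. The smaller peak, 1336 bp beyond the 3′ end (chr19:47868976-47869202, area 239.3), was present in vehicle and CBPi (area 220.8) and absent from EZH2i and FSK.

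PAPSS2, which makes the sulfate donor PAPS, had 3 peaks in each list but not the same 3. The peak at its end of lower coordinate (chr10:87659648-87660670) was 1023 bp wide in vehicle, 835 bp with EZH2i, 925 bp with CBPi and 810 bp with FSK, so it was narrower in every treated list. In area, 31.0%, 53.6%, 44.4% and 44.4% of the lists, which differ in length, lay above it. Among regions that all lists hold, its percentiles were 41.3, 33.5, 35.7 and 33.8. Matched neighbouring peaks within 1 Mb also leaned to narrower, with median ratios of 0.884 with EZH2i, 0.972 with CBPi and 0.913 with FSK. A peak 17101 bp outside the gene was also held by all lists, at 415, 284, 340 and 417 bp. Each treated list lost the intragenic peak named above and gained 1 elsewhere in the gene. EZH2i gained chr10:87684651-87685131 (area 343.5), and CBPi and FSK gained chr10:87701450-87701775 (areas 207.0 and 351.3).

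STS, steroid sulfatase, releases free steroid from its sulfate. Its start peak (chrX:7147150-7148832) was 1683 bp wide in vehicle, 1605 bp with EZH2i, 1559 bp with CBPi and 1898 bp with FSK. It was the only peak of STS left in the treated lists, since both intragenic peaks were lost in each. Chromatin around the gene was sparse: only 12 vehicle peaks within 1 Mb were not assigned to STS. Of these, 10 were lost with EZH2i (83.3%), 10 with CBPi (83.3%) and 7 with FSK (58.3%). Over all vehicle peaks the shares lost were 37.7%, 30.6% and 30.2% in the same order. Peak size was not matched, and small peaks were lost more often: with EZH2i, 67.7% of the smaller-area and 7.62% of the larger-area vehicle peaks.

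AKR1C3, HSD17B4 and SRD5A1 convert androgens. AKR1C3, which reduces androstenedione to testosterone, had 3 peaks in every list. With EZH2i all 3 were narrower: the upstream peak (chr10:5040284-5041513) went from 1230 to 654 bp, the intragenic peak (chr10:5071064-5072178) from 1115 to 887 bp and the peak at the internal start (chr10:5094246-5095056) from 811 to 292 bp. The median ratio was 0.532, beside 0.721 over 20 neighbouring peaks within 1 Mb. With CBPi the widths were 1173, 903 and 809 bp (median ratio 0.954), and with FSK 567, 1001 and 809 bp (median ratio 0.898). AKR1C3 lies beside near-identical paralogs, and how reads that match several copies were placed is not given in the sources used here, so its values are uncertain.

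HSD17B4, a peroxisomal enzyme that oxidizes 17-beta-hydroxysteroids and very long fatty acids, had 6 vehicle peaks and 4 in each treated list. Its start peak (chr5:119452046-119453366) was 1321 bp wide in vehicle, 1067 bp with EZH2i, 1255 bp with CBPi and 1038 bp with FSK. The intragenic peak at chr5:119459066-119459432 went the other way, at 367, 388, 399 and 558 bp. In area, 90.8% of the vehicle list and 49.2% of the FSK list lay above it. Of its 6 vehicle peaks 2 were lost with each agent, both of smaller area. Of 46 neighbouring peaks within 1 Mb, 63.0% were lost with EZH2i, 56.5% with CBPi and 50.0% with FSK. Over all vehicle peaks the shares lost were 37.7%, 30.6% and 30.2% in the same order, and peak size was not matched.

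SRD5A1, the type 1 steroid reductase that makes dihydrotestosterone, had the largest start peak of the 9 genes (chr5:6632395-6634579). It was 2185 bp wide in vehicle, 2026 bp with EZH2i, 2238 bp with CBPi and 2224 bp with FSK. Only 0.754%, 1.21%, 1.36% and 0.781% of the lists lay above it. FSK alone added a peak 2503 bp beyond the 3′ end (chr5:6676790-6677002, area 220.9).

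AKR1B1, an aldose reductase that also reduces the aldehyde released when the cholesterol side chain is cut, had 4 vehicle peaks. Its start peak (chr7:134458199-134459726) was 1528 bp wide in vehicle, 1080 bp with EZH2i, 1490 bp with CBPi and 1058 bp with FSK. A downstream peak at chr7:134432167-134433240 was held by all lists and had widths of 1074, 853, 819 and 988 bp. The small downstream peak at chr7:134420613-134420879 (area 234.8) was absent from FSK only.

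Width was compared over all peaks that matched 1 to 1 between vehicle and a treated list. With EZH2i, 9 of 24 peaks of the 9 genes were wider than in vehicle (37.5%, interval 21.16 to 57.29%) against 24.3% of all matched peaks, and the median ratio was 0.878 beside 0.889. With CBPi it was 10 of 25 (40.0%, 23.4 to 59.26%) against 40.7%, with medians of 0.969 and 0.965. With FSK it was 10 of 23 (43.5%, 25.63 to 63.19%) against 32.5%, with medians of 0.998 and 0.924. POR supplied 6, 7 and 6 of these wider peaks. Without POR, 3 of 17 peaks were wider with EZH2i (17.6%, 6.191 to 41.03%), 3 of 18 with CBPi (16.7%, 5.837 to 39.22%) and 4 of 16 with FSK (25.0%, 10.18 to 49.5%), so the counts above rest largely on that 1 gene. POR was set aside after its widths were seen, and the background was not trimmed in the same way. The shares without POR therefore cannot be set against the background.

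**Figure D4:**
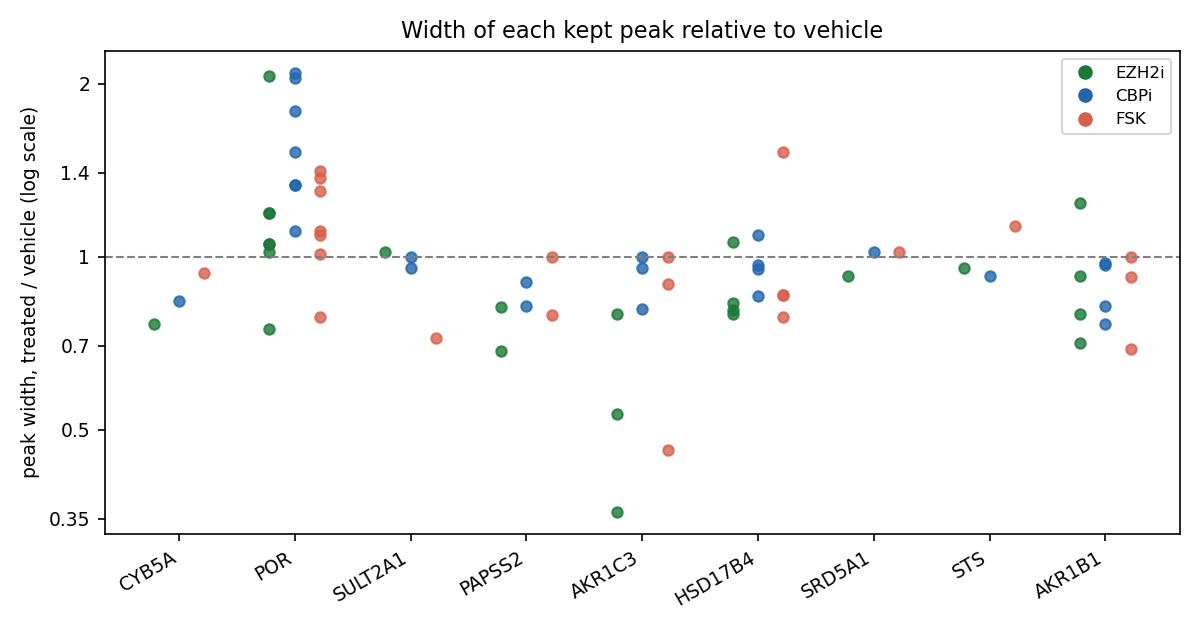
Width of each peak matched 1 to 1 relative to vehicle (y axis, treated / vehicle, log scale) by gene (x axis) and treatment (colour). The POR points lie above 1 in 7 of 7 peaks with CBPi, and the lowest point is the internal start of AKR1C3 with EZH2i, 0.36.

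Ranks were compared only over the 31427 regions that all 4 lists hold, so that every list ranks the same regions. A percentile of 100 is the largest area and the shift is the treated minus the vehicle percentile. The 9 genes had 23 such regions, with a median shift of -1.76 points with EZH2i, 1.86 with CBPi and -0.258 with FSK, beside 0.0255, 0.0827 and -0.229 over all regions. At their 9 regions near a start, among which both annotated ends of POR are counted, the medians were -0.401, -1.55 and -1.92 points. The middle 50% of all regions ran from -5.15 to 5.41 points with EZH2i, from -6.58 to 6.7 with CBPi and from -6.05 to 5.23 with FSK. The medians depended on the measure. With area divided by width ranked they were -5.26 for EZH2i, -1.74 for CBPi and -0.649 for FSK, beside -0.118, 0.474 and -0.834 over all regions, whose middle 50% then ran from -10.1 to 10.2, from -10.8 to 11.8 and from -11.9 to 10.1 points. With the summit −log10 p ranked they were -1.02, 4.06 and 0.0461, beside 0.119, 0.485 and -0.748. The EZH2i median was thus below 0 under all 3 measures, and the CBPi and FSK medians changed sign with 1 of them.

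Regions that moved by at least 10 points were counted. With EZH2i, 3 of 23 were lower (13.0%, background 14.6%) and 3 higher (13.0%, background 14.8%). With CBPi, 1 of 23 was lower (4.35%, background 18.3%) and 5 were higher (21.7%, background 18.1%). With FSK, 4 of 23 were lower (17.4%, background 16.7%) and 3 higher (13.0%, background 15.9%). Each of these shares is near the background or has an interval that holds it, CBPi lower included (0.7717 to 20.99%).

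Single regions moved further. Those named for a large shift were picked after their values were seen, out of 23 regions and 3 treatments. The share of all shared regions beside a shift is therefore not a test of it. The SULT2A1 upstream region stood at percentile 54.2 in vehicle, 59.4 with EZH2i, 65.2 with CBPi and 20.3 with FSK. The FSK shift of -33.9 points was matched or passed in the same direction by 1.56% of all shared regions. Its 75 neighbouring regions within 1 Mb had a median FSK shift of 3.4 points, with 9 lower by at least 10 points and 19 higher. The neighbours were higher in rank with CBPi (median 16.7) and with EZH2i (median 10.3), where the SULT2A1 region shifted by 11.0 and 5.24 points.

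The internal start of AKR1C3 stood at percentile 42.7 in vehicle, 2.64 with EZH2i, 36.3 with CBPi and 22.5 with FSK. Its EZH2i shift of -40.0 points was matched or passed in the same direction by 0.566% of shared regions, and the median of 18 neighbours was -5.77. The intragenic HSD17B4 region stood at 0.66, 1.67, 16.8 and 28.8 in the same order, a shift of 28.2 points with FSK that 3.56% of regions matched or passed in that direction. From percentile 0.66 in vehicle the HSD17B4 region had almost no room to move lower. In POR all 7 regions shifted higher with CBPi, by 1.86 to 23.0 points, where 38 neighbours had a median of 6.92. By contrast the start regions of SRD5A1 and CYB5A kept their place, between 97.9 and 98.6 and between 88.5 and 92.0 over the 4 lists. The start regions of HSD17B4 and AKR1B1 also stayed close, between 83.9 and 85.6 and between 87.8 and 92.0. At its percentile SRD5A1 had almost no room to move higher.

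**Figure D5:**
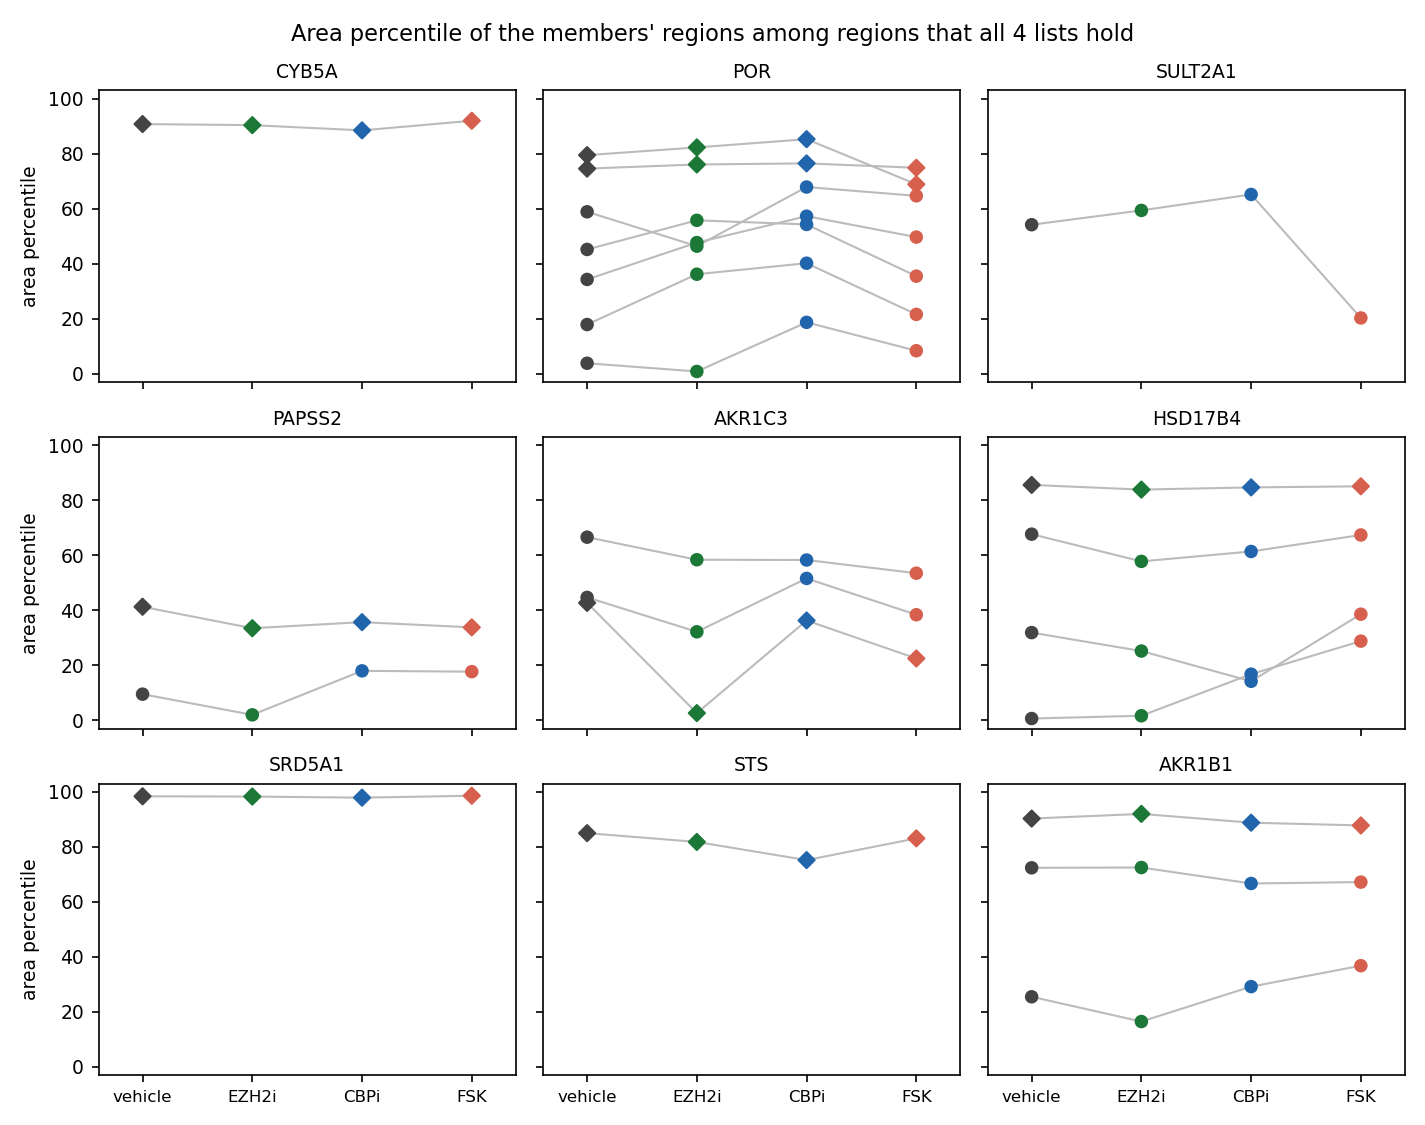
Area percentile (y axis, 0 to 100) of the 23 regions of the 9 genes that all 4 lists hold, among 31427 such regions. There is 1 panel a gene, and lines join a region over the lists. Diamonds are regions within 1 kb of a start, or of a gene end for POR and PAPSS2. The SULT2A1 region drops from 54.2 to 20.3 with FSK and the internal start of AKR1C3 from 42.7 to 2.64 with EZH2i.

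Genes of the surrounding pathway were read from lists by their start peaks. By the same rule, 68.0% of all genes had a start peak in vehicle, and of these 3.89% had none with EZH2i, 1.92% with CBPi and 4.24% with FSK. Upstream steroid synthesis had start peaks at 6 of 8 genes in each of the 4 lists, and glucuronidation, transport and receptor genes at 4 of 9 in each. Of 7 other electron donors and cytochrome b5 partners, 5 had a start peak in vehicle, CBPi and FSK and 4 with EZH2i, where that of CYB5R3, a cytochrome b5 reductase, was absent (vehicle area 228.7). Of 13 genes of sulfate activation and sulfate transfer, 9 had a start peak in vehicle and in FSK and 7 with EZH2i and with CBPi, so 2 of 9 were absent from each. The absent ones were those of the sulfotransferases SULT1B1 (vehicle area 697.3) and SULT1C2 (535.6), absent from both lists. These were larger than any of the peaks lost at the 9 genes.

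Of 19 genes of ketosteroid and androgen conversion, 11 had a start peak in vehicle, 9 with EZH2i, 9 with CBPi and 11 with FSK. The peak at AKR1C2, a paralog of AKR1C3, was absent from all treated lists (vehicle area 209.2), and that at HSD11B2, which inactivates cortisol, was absent from EZH2i and CBPi (220.4). The peak at CYP19A1, aromatase, was present with FSK only (area 325.9). Over all assigned peaks, EZH2i lost 37.1% of 35 vehicle peaks of upstream steroid synthesis, 41.7% of 12 of the electron donors, 48.7% of 39 of the sulfate genes, 42.9% of 63 of the conversion genes and 32.4% of 37 of the glucuronidation list. CBPi lost 22.9%, 16.7%, 43.6%, 30.2% and 37.8% in that order, and FSK lost 31.4%, 16.7%, 20.5%, 34.9% and 29.7%. The shares over all vehicle peaks were 37.7%, 30.6% and 30.2%, and peak size was not matched between the lists.

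Likeness between genes was measured by the summed width of a gene's peaks, as the log2 ratio of treated over vehicle (after adding 1 kb) in the 3 treatments, over 3242 genes with at least 5 vehicle peaks. POR had log2 ratios of 0.16 with EZH2i, 0.46 with CBPi and 0.24 with FSK, and was nearest to SETD1B (Euclidean distance 0.13) and ASS1 (0.16). HSD17B4 had ratios of -0.33, -0.20 and -0.25 and was nearest to FOCAD (0.013) and LHFPL4 (0.027). AKR1B1, with 4 vehicle peaks, was below the limit. The 3 ratios of a gene share the vehicle list.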

How the data were processed

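The labels describe ATAC-seq of NCI-H295R, 8 libraries in 4 groups of 2. Per the submitters' processing notes the build is hg38 and the tools named are Bowtie2, Genrich and deepTools 2.0, with no roles. Not given in the sources used here are the peak threshold, the filtering or shifting of reads and how libraries were combined. The authors deposited 1 peak list a group, with a signal per peak (area of significance) and a −log10 p at the summit. Depth is unknown, so areas were ranked within a list and never set against those of another. Gene positions and start windows came from RefSeq GRCh38.p14 (20033 protein-coding genes). A vehicle peak was lost when no treated peak overlapped it by at least 1 bp. Scripts (Python 3.11.15, pandas 2.3.3, scipy 1.17.1) were tested on simulated lists. The 95% Wilson intervals of shares take peaks to be independent. Named were all 9 genes, their start peaks, the 3 largest lost and gained peaks per treatment, and pathway genes whose start peak came or went; the SULT2A1, AKR1C3, HSD17B4, POR and AKR1B1 regions described beyond these were chosen after their values were seen. The genes and lists were chosen with earlier results of these data known. Alternatives changed the threshold, overlap, assignment, start distance and ranked measure.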

Additional observations from a re-analysis of the deposited data

How the results depend on the processing

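With all lists cut to their 41086 peaks of largest area, 0.0% of the 21 vehicle peaks left at the 9 genes were lost with each agent, beside 17.7%, 18.0% and 20.7% of all vehicle peaks with EZH2i, CBPi and FSK. Gained peaks then numbered 4 of 25 with EZH2i, 3 of 24 with CBPi and 3 of 24 with FSK. The cut shortened the vehicle list and left the EZH2i list whole. A treated peak over a removed vehicle peak then counts as gained. The gained share over all peaks was not computed under this limit, so these counts have no background. Scoring only the 50% of each list with larger area gave 0.0% lost and 0 gained with each agent. With summits within 250 bp as the match, EZH2i gained 2 and FSK 6, and within 1 kb of the gene, FSK gained 2. With area divided by width ranked, the median shift was -5.26 points with EZH2i, -1.74 with CBPi and -0.649 with FSK. With the summit −log10 p ranked it was -1.02, 4.06 and 0.0461. The cause was not tested. The 8 start peaks were held under all alternatives run for them. The remaining shares stayed inside the interval reported and the remaining counts within 1.5 times the count reported. No replicate could be left out because each list covers both libraries of its group. No paired analysis was possible because the lists carry no replicate values. Depth and the caller's threshold limit every statement on presence.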
